A study of Mus musculus with 18 samples.

Results

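Genes of striated muscle were followed through 3 mouse glands, none of which is itself a muscle. They are the probes whose gene symbol names a sarcomere protein, a muscle calcium-handling or energy enzyme, a sarcoglycan or a myogenic transcription factor. The symbols were matched by name alone, with no measured value used, and gave 49 probes of 48 genes out of 10500 probes. The same name pattern also caught Myl12a and Myl12b, regulatory light chains of non-muscle and smooth muscle myosin, and the light chain Myl10. Of the 49 probes, 30 were bright enough on at least 3 of the 18 arrays to be tested, and 19 were not.

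The samples were meibomian, lacrimal and submandibular glands of orchiectomised male BALB/c mice, an inbred strain, given a testosterone pellet or a placebo pellet for 21 days. All animals, controls included, lacked testes, so the comparison is hormone replacement against absence of testicular androgen. Each of the 6 groups (meibomian, lacrimal and submandibular, each with testosterone and with placebo) held 3 pools, labelled A, B and C, and each pool held 10 glands of 5 animals. The labels also state 4 animals per sex and experiment, give no age and no dissection method, and do not say whether equal letters in different glands are the same mice. The p-values below measure the spread between such pools.

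A sarcomere shortens when myosin of the thick filament pulls on actin of the thin filament, and troponin and tropomyosin hold actin closed until calcium arrives. Most of these proteins exist as fast-fibre, slow-fibre and cardiac isoforms made from different genes, so the isoforms present tell fibre types apart. Meibomian glands lie in the eyelid beside the orbicularis oculi, a fast striated muscle, while lacrimal and salivary glands are secretory organs whose contractile cells are myoepithelial and vascular.

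Values are probe intensities on a linear scale as deposited, with array medians between 0.929 and 0.952. Differences are in log2(value + 0.174), with their standard error from limma fitted to all 18 arrays, and the p-values are adjusted over all 7463 tested probes with 0.05 as the threshold for a call. A difference on this scale understates the change of dim probes. The defining genes of each gland were where the labels put them: 7 meibomian acinus probes summed to 371 to 550 in meibomian pools and to at most 32.6 elsewhere, and 11 lacrimal and salivary acinus probes summed to 394 to 1820 in the lacrimal and submandibular pools and to at most 24.4 in meibomian pools. The dim end of the arrays differed between glands: 10% of probes lay below 0.0514 to 0.0741 on meibomian arrays, below 0.211 to 0.316 on lacrimal arrays and below 0.211 to 0.243 on submandibular arrays. The part of this in gland differences among dim values, such as those of Sgca, was not tested.

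Promoter windows of 4 members show the sequence around the start of genes on which the results turn, taken from RefSeq on GRCm38.p6 with 250 bases before and 50 after the annotated start. Acta1 (chr8:123894726-123895025 on the minus strand), Ckm (chr7:19410844-19411143 on the plus strand) and Mylpf (chr7:127211358-127211657 on the plus strand) belong to the filament and energy lists that were bright in meibomian pools. Sgca (chr11:94976278-94976577 on the minus strand) is the sarcoglycan that was high in submandibular testosterone pools. Capitals mark the E-box CAGCTG, a letter pattern bound by myogenic helix-loop-helix factors, the CArG box, bound by serum response factor, and TATAAA, searched on both strands and each read without regard to the others.
Acta1: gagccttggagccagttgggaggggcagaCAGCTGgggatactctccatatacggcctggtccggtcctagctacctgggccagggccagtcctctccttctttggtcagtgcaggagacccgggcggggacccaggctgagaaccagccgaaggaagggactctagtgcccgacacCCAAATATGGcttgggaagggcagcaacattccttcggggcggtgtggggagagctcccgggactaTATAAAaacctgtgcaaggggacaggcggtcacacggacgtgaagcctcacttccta
Ckm: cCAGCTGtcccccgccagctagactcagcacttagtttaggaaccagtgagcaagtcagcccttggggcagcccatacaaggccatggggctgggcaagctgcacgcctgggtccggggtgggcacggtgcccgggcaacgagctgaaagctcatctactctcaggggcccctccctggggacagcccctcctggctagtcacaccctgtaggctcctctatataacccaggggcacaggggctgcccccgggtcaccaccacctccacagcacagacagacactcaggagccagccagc
Mylpf: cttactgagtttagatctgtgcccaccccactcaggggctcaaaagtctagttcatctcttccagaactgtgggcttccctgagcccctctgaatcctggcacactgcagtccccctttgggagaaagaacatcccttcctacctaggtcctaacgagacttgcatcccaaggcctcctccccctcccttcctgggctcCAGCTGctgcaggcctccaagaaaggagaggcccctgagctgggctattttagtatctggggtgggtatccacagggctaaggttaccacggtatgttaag
Sgca: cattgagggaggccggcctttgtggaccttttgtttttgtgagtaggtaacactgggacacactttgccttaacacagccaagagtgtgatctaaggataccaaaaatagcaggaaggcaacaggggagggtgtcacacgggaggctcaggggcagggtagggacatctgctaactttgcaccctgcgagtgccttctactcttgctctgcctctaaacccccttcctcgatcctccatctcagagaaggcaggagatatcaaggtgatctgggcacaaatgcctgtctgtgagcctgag
In Acta1, CAGCTG begins at position -221, the CArG box at -73 and TATAAA at -7 from the annotated start. In Ckm and Mylpf, CAGCTG begins at -249 and -51. The Sgca window holds none of the capitalised patterns, nor the MEF2 box that was also searched. Of the 23 tested genes of the fast filament, calcium, energy and Z-disc lists, 16 had a window. The CAGCTG letters stood in 11 of these windows (68.8%), namely those of Acta1, Atp2a1, Casq1, Ckm, Ckmt2, Des, Eno3, Myl1, Mylpf, Myoz2 and Pygm. The windows of Actn2, Ldb3, Myh2, Pvalb and Tnnc2 did not hold these letters, so the printed windows of Acta1, Ckm and Mylpf do not stand for the whole set. The letters stood in 5 of 21 other members with a window (23.8%) and in 18.3% of 27025 genes with windows of the same length. The looser pattern CANNTG, which contains CAGCTG, stood in 87.5% of the 16, 85.7% of the 21 and 75% of all genes. The MEF2 box was in 12.5% of the 16 (Myoz2 and Pvalb) and 3.7% of all genes, the CArG box in 12.5% (Acta1 and Ldb3) and 1.81%, and TATAAA in 18.8% and 15.7%. These are matches of letters and not evidence of binding.

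**Figure D1:**
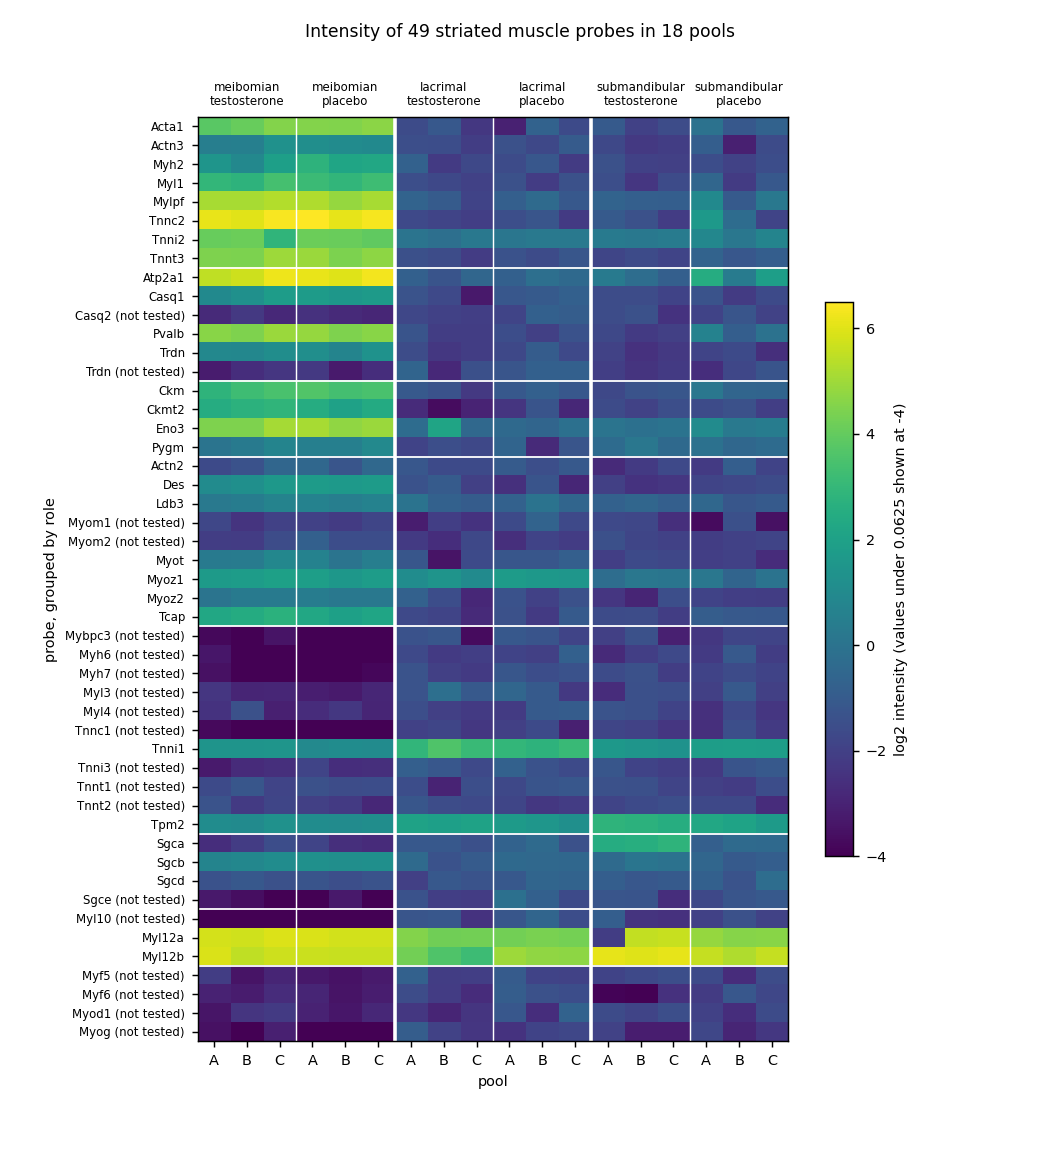
Log2 intensity of all 49 probes (rows, grouped by role and separated by white lines) in the 18 pools (columns). The fast-filament, calcium and energy rows are bright in the 6 meibomian columns, Tnni1 is brightest in the lacrimal columns, and Sgca stands out in the 3 submandibular testosterone columns.

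Fast-fibre filament, calcium and energy genes were high in every meibomian pool and, for most, close to the dim end in lacrimal pools. Of the 30 tested probes, 23 were higher and 2 lower in meibomian than in lacrimal placebo pools, where 29.2% and 38.7% of all tested probes were called higher and lower. Against submandibular placebo pools 24 were higher and 3 lower, against 30.6% and 36% of all tested probes. In testosterone pools 24 were higher and 3 lower than in the lacrimal gland (32.2% and 36.9% of all), and 23 higher and 2 lower than in the submandibular gland (31.5% and 35.7% of all). A probe called higher in meibomian pools than in both other glands was found for 22 of the 30 with placebo (22.6% of all tested probes) and for 22 with testosterone (23%), and for 21 with both (18%). The filter on dim probes helped to set these counts: 15 of the 30 would not have passed it without the meibomian arrays, and 10 of them exceeded it on meibomian arrays only. With no filter, 24 of all 49 probes were called higher and 18 lower in meibomian than in lacrimal placebo pools (21.2% and 51.4% of all probes), and 25 higher and 14 lower than in submandibular placebo pools (22.4% and 46.7%). Fewer muscle cells and less muscle RNA per cell cannot be told apart in pooled tissue.

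By summed intensity, markers of some other cell types were also higher in meibomian pools than in both other glands. Those of others exceeded only the lacrimal gland, or neither. Of 6 probes for keratinising epithelium 5 were higher and 1 lower in meibomian than in lacrimal placebo pools, and the 6 summed to 212 to 266 in all meibomian pools, against 3.01 to 4.89 in lacrimal and 4.43 to 6.81 in submandibular pools. Of 12 fibroblast and matrix probes 11 were higher and 0 lower than in the lacrimal gland with placebo, summing to 152 to 166 in meibomian, 44.4 to 54.2 in lacrimal and 69.3 to 78.5 in submandibular placebo pools. Of 9 tested smooth muscle and myoepithelial probes 7 were higher and 1 lower than in the lacrimal gland with placebo, and 4 higher and 1 lower than in the submandibular gland. The 10 probes of that list summed to 71.8 to 75.0 in meibomian and 64.0 to 75.7 in submandibular placebo pools, which overlap. Over all tested probes 29.2% were called higher and 38.7% lower than in the lacrimal gland with placebo. Against the submandibular gland these shares were 30.6% and 36%. The part of these tissues in the muscle results was not tested.

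Among the thin-filament genes, Tnnc2, the calcium-binding troponin subunit of fast fibres, measured 70.1, 65 and 84.6 in meibomian testosterone pools A, B and C and 88, 69.4 and 82.8 in meibomian placebo pools. In lacrimal pools it was 0.316, 0.281 and 0.238 with testosterone and 0.364, 0.428 and 0.215 with placebo. In submandibular pools it was 0.489, 0.385 and 0.226 with testosterone and 3.17, 0.826 and 0.279 with placebo. No meibomian pool came near a pool of another gland, and only submandibular placebo pool A stood clearly above the dim range. The placebo difference was 7.32 ± 0.46 against the lacrimal gland (adjusted p = 5.16e-10, limma) and 6.12 ± 0.46 against the submandibular gland (adjusted p = 6.38e-09). The lacrimal values lie at the dim end of the arrays, so the size of the difference depends on the offset.

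Tnnt3, the fast troponin T that ties the complex to tropomyosin, measured 22.4, 21.3 and 31.1 in meibomian testosterone pools and 29.9, 21.3 and 26.1 in meibomian placebo pools. It lay between 0.227 and 0.443 in all lacrimal pools and between 0.280 and 0.638 in all submandibular pools, so the glands did not overlap. Its placebo differences were 5.52 ± 0.17 against the lacrimal and 5.16 ± 0.17 against the submandibular gland, with the smallest adjusted p-values of the 30 members (8.80e-14 and 2.68e-13, limma). Acta1, skeletal muscle actin, measured 14.0, 16.8 and 23.3 in meibomian testosterone pools and 23.3, 22.7 and 25.8 in meibomian placebo pools, against 0.120 to 0.625 in lacrimal and 0.255 to 0.977 in submandibular pools. Its placebo differences were 5.62 ± 0.32 and 4.86 ± 0.32 in the same order of glands. Tnni2, the inhibitory troponin of fast fibres, differed by 3.65 ± 0.25 and 3.31 ± 0.25.

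The thick-filament genes and Actn3 followed. Mylpf, the regulatory light chain of fast myosin, measured 35.4, 35.03 and 38.9 in meibomian testosterone pools and 38, 28.3 and 35.02 in meibomian placebo pools. In lacrimal pools it was 0.268 to 0.772. In submandibular pools it was 0.643, 0.560 and 0.556 with testosterone and 1.98, 0.486 and 1.16 with placebo. The placebo differences were 5.47 ± 0.31 against the lacrimal and 4.77 ± 0.31 against the submandibular gland. Myl1, the fast essential light chain, differed by 4.15 ± 0.24 and 3.87 ± 0.24, Myh2, a fast myosin heavy chain, by 3.48 ± 0.27 and 3.49 ± 0.27, and Actn3, the Z-line crosslinker of fast fibres, by 2.01 ± 0.27 and 2.27 ± 0.27. All 8 probes of the fast-filament list were thus higher in meibomian pools in each of the 4 gland comparisons. The list includes Acta1, an actin that is not limited to fast fibres.

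**Figure D2:**
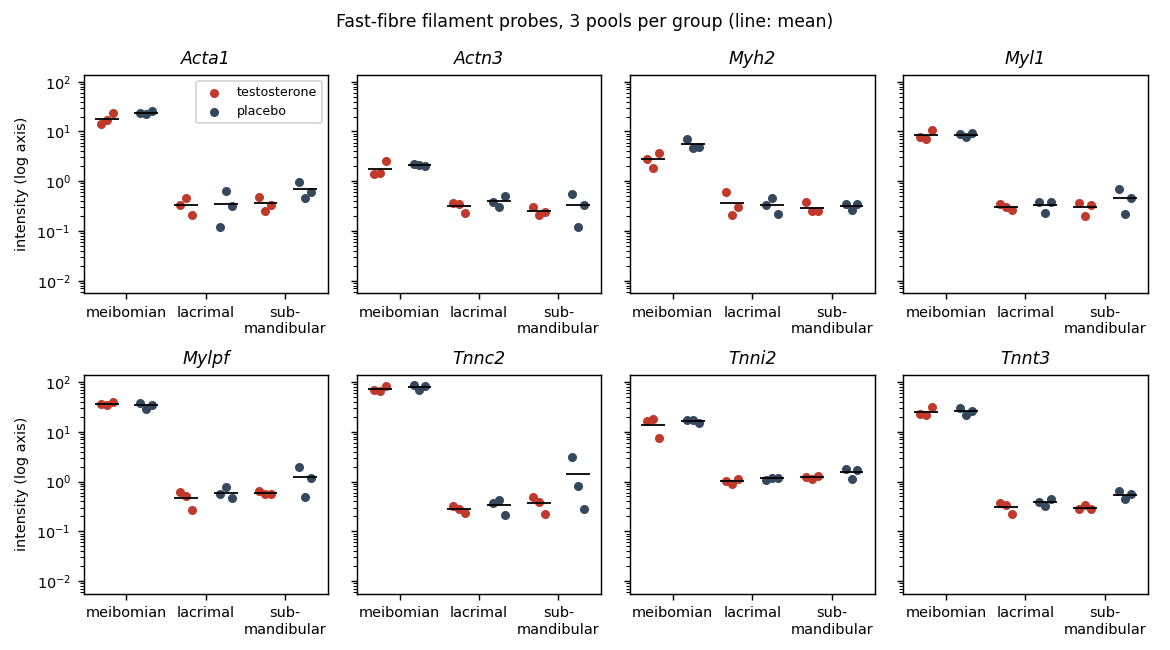
Intensity (log axis) of the 8 fast-fibre filament probes in each pool, with testosterone left of placebo in each gland and a line at the mean of 3 pools. All meibomian points lie above all points of the other glands, and for Tnnc2 the submandibular placebo pools spread from 0.279 to 3.17.

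Slow-fibre and cardiac partners of the filament proteins and of calsequestrin gave no such signal. An exception was Myoz2, the slow-fibre and cardiac counterpart of the Z-disc protein Myoz1, which was higher in meibomian pools and is given below. Tnnc1, the troponin C of slow and cardiac muscle, was between 0 and 0.0742 on meibomian arrays, and Tnnt1, the slow troponin T, between 0.275 and 0.441. Myh7, the slow and cardiac myosin heavy chain, was between 0 and 0.0857, Myl3, the slow essential light chain, between 0.105 and 0.197, and Casq2, the cardiac calsequestrin, between 0.136 and 0.211. None of these probes was bright enough to be tested, in any gland, so each has a bound rather than a level. Of 11 slow-fibre and cardiac probes only Tnni1 and Tpm2 were tested. The untested ones were Tnnc1, Tnnt1, Tnnt2, Tnni3, Myh6, Myh7, Myl3, Myl4 and Mybpc3.

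With placebo Tnni1, the inhibitory troponin of slow fibres, had the opposite order of glands to its fast partner Tnni2. It measured 2.70, 2.67 and 2.77 in meibomian testosterone pools and 1.91, 2.13 and 2.09 in meibomian placebo pools. In lacrimal pools it was 7.48, 12.1 and 8.62 with testosterone and 7.63, 6.99 and 8.55 with placebo. In submandibular pools it was 3.07, 2.82 and 2.56 with testosterone and 3.57, 3.72 and 3.60 with placebo. The lacrimal pools were all highest. With testosterone the meibomian and submandibular pools overlapped (difference -0.05, adjusted p = 0.775, limma). The placebo differences were -1.83 ± 0.14 for meibomian minus lacrimal (adjusted p = 7.49e-09), -0.78 ± 0.14 for meibomian minus submandibular (adjusted p = 0.000145) and 1.05 ± 0.14 for lacrimal minus submandibular (adjusted p = 1.61e-05). By contrast Tnni2 was at 0.902 to 1.19 in lacrimal pools and 7.33 to 17.8 in meibomian pools.

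Calcium handling genes were likewise higher in meibomian pools, all 4 tested probes against both other glands with placebo. Atp2a1, the calcium pump of the fast-fibre sarcoplasmic reticulum, measured 45.3, 52.1 and 75.5 in meibomian testosterone pools and 71.4, 63.7 and 80.5 in meibomian placebo pools. Lacrimal pools lay between 0.415 and 0.901. Its placebo differences were 6.30 ± 0.37 against the lacrimal gland (adjusted p = 2.63e-10) and 4.48 ± 0.37 against the submandibular gland (adjusted p = 2.39e-08). Pvalb, the calcium buffer parvalbumin of fast fibres, measured 24.7, 22.1 and 30.01 in meibomian testosterone pools and 28.6, 21.9 and 25.03 in meibomian placebo pools, against 0.232 to 0.408 in all lacrimal pools. It differed by 5.65 ± 0.25 from the lacrimal and 4.47 ± 0.25 from the submandibular gland. These 2 genes set the lacrimal and submandibular placebo pools apart as well: lacrimal minus submandibular was -1.82 ± 0.37 for Atp2a1 and -1.19 ± 0.25 for Pvalb. Casq1, which stores calcium in the reticulum, measured 2.001, 2.39 and 3.46 in meibomian testosterone pools and 3.35, 2.94 and 3.32 in meibomian placebo pools, with a placebo difference of 2.31 ± 0.24 from the lacrimal gland. Trdn, which anchors calsequestrin beside the release channel, measured 1.89, 1.81 and 2.20 in meibomian testosterone pools and 2.29, 1.68 and 2.53 in meibomian placebo pools, with a placebo difference of 2.09 ± 0.20. A further Trdn probe and Casq2 were too dim to test.

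The enzymes of muscle energy supply were also higher in meibomian placebo pools than in both other glands. Eno3, muscle enolase, measured 22.1, 21.9 and 34.1 in meibomian testosterone pools and 35.1, 27.1 and 30.4 in meibomian placebo pools, with a placebo difference of 5.03 ± 0.42 from the lacrimal gland. Its lacrimal testosterone pools were 0.819, 4.38 and 0.730, so pool B stood apart from its own group and from the lacrimal placebo pools (0.663 to 0.906). Ckm, muscle creatine kinase, measured 7.06, 9.44 and 11.2 in meibomian testosterone pools and 12.7, 10.2 and 11.1 in meibomian placebo pools, a placebo difference of 4.10 ± 0.22 from the lacrimal gland. Ckmt2, its mitochondrial counterpart, measured 5.66, 6.69 and 7.34 in meibomian testosterone pools and 5.63, 4.08 and 5.27 in meibomian placebo pools, against 0.0800 to 0.412 in lacrimal pools. Its placebo difference from the lacrimal gland was 3.65 ± 0.21. Pygm, which breaks down muscle glycogen, was nearer to the other glands, at 1.03, 1.25 and 1.68 in meibomian testosterone pools and 1.45, 1.47 and 1.90 in meibomian placebo pools. Its difference from the submandibular gland was 0.84 ± 0.26 with placebo (adjusted p = 0.0103) and 0.49 ± 0.26 with testosterone (adjusted p = 0.113).

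Z-disc and M-band genes were less uniform. Tcap, the titin cap, measured 4.97, 5.57 and 6.44 in meibomian testosterone pools and 4.85, 3.94 and 4.56 in meibomian placebo pools, against 0.150 to 0.493 in lacrimal pools, a placebo difference of 3.13 ± 0.20. Des, desmin, the filament that links neighbouring Z-discs, measured 2.12, 2.35 and 3.05 in meibomian testosterone pools and 3.39, 3.24 and 3.36 in meibomian placebo pools, also a placebo difference of 3.13 ± 0.22 from the lacrimal gland. Ldb3, a Z-disc scaffold, measured 1.17, 1.34 and 1.63 in meibomian testosterone pools and 1.57, 1.42 and 1.57 in meibomian placebo pools. It differed from the lacrimal placebo pools by 0.88 ± 0.21. Myoz1, a calcineurin-binding Z-disc protein of fast fibres, was the exception in the set. It measured 3.28, 3.51 and 3.95 in meibomian testosterone pools and 3.68, 2.96 and 3.49 in meibomian placebo pools, and the lacrimal pools were nearly as bright, at 2.14, 2.69 and 2.02 with testosterone and 3.40, 3.05 and 2.84 with placebo. Submandibular pools were at 0.852, 1.11 and 1.07 with testosterone and 1.13, 0.647 and 0.992 with placebo. The meibomian and lacrimal pools differed by 0.12 ± 0.17 with placebo (adjusted p = 0.558) and by 0.62 ± 0.17 with testosterone (adjusted p = 0.0041), while the lacrimal placebo pools exceeded the submandibular ones by 1.599 ± 0.17 (adjusted p = 9.84e-07). Myoz2, the slow-fibre and cardiac counterpart of Myoz1, and Myot, a further Z-disc protein, were 1.41 ± 0.25 and 1.19 ± 0.25 higher in meibomian than in lacrimal placebo pools. Myoz2 measured 1.02 to 1.31 in meibomian, 0.141 to 0.600 in lacrimal and 0.132 to 0.357 in submandibular pools. Actn2, the general sarcomeric actinin, was not called between meibomian and lacrimal placebo pools (0.34 ± 0.26). The M-band genes Myom1 and Myom2 were too dim to test.

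Among the remaining members only Sgcb was called higher in meibomian than in both other placebo glands. Myl12a was not called, though its placebo pools were apart, at 54.9 to 60.3 in meibomian, 19.3 to 21.1 in lacrimal and 24.0 to 28.7 in submandibular pools. Its spread in the joint fit of 18 arrays includes submandibular testosterone pool A, at 0.233. Myod1, Myog, Myf5 and Myf6, the transcription factors that drive muscle differentiation, were all too dim to test, with no pool above 0.619. Of the sarcoglycans, which link the muscle membrane to the extracellular matrix, Sgcb was higher in meibomian placebo pools by 1.47 ± 0.17 than in lacrimal pools and by 1.75 ± 0.17 than in submandibular pools, and Sgca was lower by 1.02 on the log2 scale. Sgcd, at 0.251 to 0.846 in all pools, was not called in any gland pair, and Sgce was too dim to test. Tpm2, a tropomyosin shared by slow fibres and smooth muscle, was lower in meibomian than in submandibular placebo pools (-0.86 ± 0.15, adjusted p = 7.05e-05) and missed the threshold against the lacrimal gland (-0.34 ± 0.15, adjusted p = 0.0502). Myl10 was too dim to test.

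Muscle genes outside the name pattern were also measured. Of 41 tested probes of 69 for other skeletal muscle genes, 23 were higher and 11 lower in meibomian than in lacrimal placebo pools (29.2% and 38.7% of all tested probes), with the same dimness filter applied. Against submandibular placebo pools 22 were higher and 12 lower (30.6% and 36% of all tested probes). The brightest in meibomian placebo pools were Hspb8, a small heat shock protein, Cox8b, a muscle and brown-fat subunit of cytochrome oxidase, Cryab, the chaperone alpha-B crystallin, and Aldoa, the muscle aldolase. They were picked by that brightness, which favours genes that are higher in meibomian pools. Hspb8 was 23.5 to 25.9 in meibomian testosterone pools and 21.5 to 24.1 in meibomian placebo pools, with a placebo difference of 4.44 from the lacrimal gland. Cox8b differed by 4.97 from the lacrimal gland and by -0.26 (adjusted p = 0.482) from the submandibular gland, where it was at 13.5 to 32.6 with placebo. Cryab exceeded the lacrimal placebo pools by 1.13 and Aldoa by 1.87. Of 10 heart-restricted probes, 3 of which are also counted above, only Gata4, Myl7 and Ryr2 were bright enough to test, and the lacrimal placebo pools exceeded the meibomian ones in Gata4 and Ryr2. The defining cardiac genes Tnni3, Myh6 and Tnnt2 did not exceed 0.606 in any pool.

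No muscle probe was called under testosterone in the meibomian gland in the joint fit of all arrays. Limma called 0 of 30 (0.59% of all tested probes were called in either direction), the lowest adjusted p was 0.138, and 2 had an unadjusted p under 0.05. With the meibomian arrays fitted alone, 1 member was called higher and 0 lower, and 3.3% of all tested probes were called. The median effect was -0.09 over the 30 probes and 0.06 over all tested probes. Pools did not overlap for 6 members: Ckmt2, Tcap and Tnni1 were higher and Des, Myh2 and Sgcb lower with testosterone, and over all tested probes 24.1% were apart in the higher and 11.8% in the lower direction. Myh2 had the largest difference. It measured 2.81, 1.85 and 3.75 in meibomian testosterone pools and 6.92, 4.57 and 4.95 in meibomian placebo pools, a difference of -0.96 ± 0.27 (adjusted p = 0.138), with the meibomian arrays alone at adjusted p = 0.0609. It was called without testosterone pool C (-1.18, adjusted p = 0.0478), with an offset 4 times larger (-0.84, adjusted p = 0.0379) and with array weights (-1.23, adjusted p = 0.00043). With array weights 4 members were called, Myh2, Des and Sgcb lower and Tnni1 higher. Tnni1 differed by 0.38 ± 0.14 (adjusted p = 0.247, and 0.0476 with the meibomian arrays alone).

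The spread of these genes among meibomian pools was shared. Across the 23 tested probes of the fast filament, calcium, energy and Z-disc lists, testosterone pool C was the highest of its group for 21, all but Tnni2 and Myoz2, where 31.1% of all tested probes were highest in that pool. Placebo pool B was the lowest of its group for 20, against 34.6% of all tested probes. The 23 probes summed to 294, 300 and 386 in testosterone pools A, B and C and to 392.4, 320.2 and 377.6 in the placebo pools. The group means of these sums, 327 with testosterone and 363 with placebo, lay closer together than the highest and lowest pool of either group. The median within-group standard deviation in the meibomian gland was 0.26 for the 23 probes and 0.14 for all tested probes on the log2 scale. The 23 probes also spread more than all tested probes in the lacrimal gland (0.355 and 0.219) and the submandibular gland (0.276 and 0.220). Tnni2 ran against its neighbours in pool C, at 7.33 with 16.5 and 17.8 in the other testosterone pools.

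**Figure D3:**
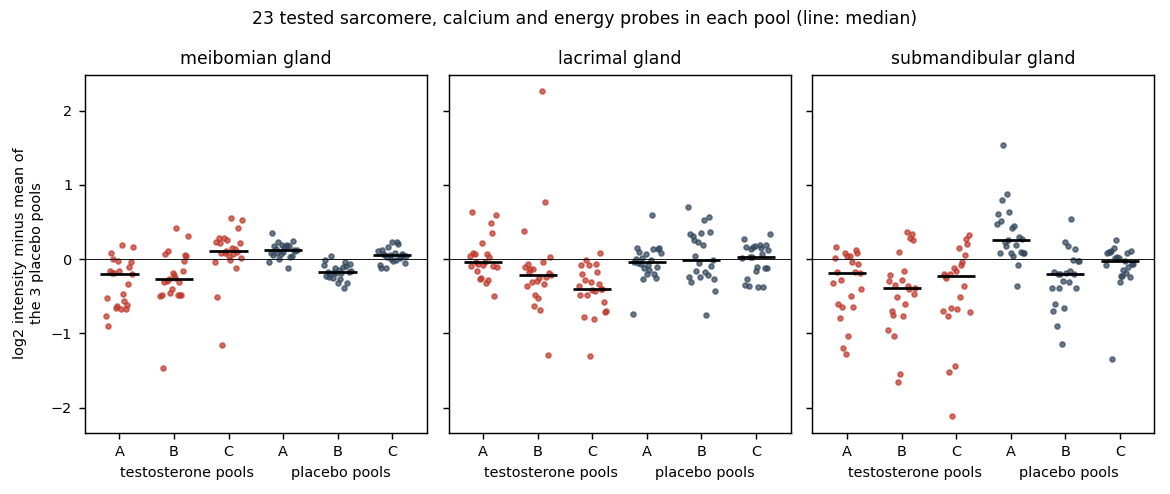
Log2 intensity minus the mean of the 3 placebo pools of the same gland, for the 23 tested probes of the fast filament, calcium, energy and Z-disc lists in each pool (points) with the median (line). Meibomian placebo pool B has a median of -0.175 and testosterone pool C of 0.11, and the submandibular placebo pool A has a median of 0.26.

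In the lacrimal gland 1 of 30 muscle probes was called higher and 2 lower with testosterone, where 13.3% and 14.8% of all tested probes were called. Myl12b, a regulatory light chain of non-muscle myosin, measured 19.5, 12.2 and 9.30 in lacrimal testosterone pools and 30.7, 27.1 and 26.3 in lacrimal placebo pools. The groups did not overlap, and the difference was -1.09 ± 0.19 (adjusted p = 0.000434). Tpm2 measured 4.18, 3.805 and 4.17 with testosterone and 3.29, 2.82 and 2.33 with placebo, a difference of 0.51 ± 0.15 (adjusted p = 0.0147, and 0.0752 without placebo pool C). Casq1 measured 0.3996, 0.312 and 0.101 with testosterone and 0.453, 0.485 and 0.590 with placebo, all below the median of the arrays. It exceeded the dimness filter on the 6 meibomian arrays only. Its difference of -0.68 ± 0.24 passed narrowly (adjusted p = 0.0437) and did not pass without any of 11 single pools in turn, among them lacrimal testosterone pool C (-0.37, adjusted p = 0.242) and lacrimal placebo pool C (-0.60, adjusted p = 0.129). Of the 23 probes, 22 lay below the placebo mean in testosterone pool C, 19 in pool B and 13 in pool A. The same arrays had a lower dim end, with 10th percentiles of 0.211, 0.258 and 0.299 in testosterone pools C, B and A and 0.307 to 0.316 in placebo pools, and the part of this in the result was not tested.

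Lacrimal smooth muscle and myoepithelial markers moved with Myl12b: 5 of 9 tested probes fell and none rose with testosterone, and the 10 probes summed to 12.8 to 15.02 in testosterone pools and 26.4 to 30.2 in placebo pools. Their part in the Myl12b result was not tested. Of the 41 other skeletal muscle probes in the lacrimal gland, 3 rose and 5 fell, no larger a share than the 13.3% and 14.8% of all tested probes. Those that rose were Itgb1bp2 (1.12), a muscle integrin-binding protein, Cox7a1 (0.55), a muscle cytochrome oxidase subunit, and Mef2c (0.49), a muscle transcription factor. Those that fell were Cryab (-1.92), Pdlim3 (-1.16), an actinin-binding protein, Gys1 (-0.63), muscle glycogen synthase, Fbxo32 (-0.51), a muscle ubiquitin ligase, and Hspb2 (-0.44).

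In the submandibular gland 4 fast-muscle genes fell with testosterone, and the placebo pools differed widely from each other. Limma called 4 of 30 probes lower and 3 higher (5.25% and 8.54% of all tested probes). Atp2a1 measured 1.24, 0.846 and 0.568 in testosterone pools A, B and C against 5.71, 1.29 and 3.69 in the placebo pools in that order. The groups did not overlap, though placebo pool B lay just above testosterone pool A. The difference was -1.65 ± 0.37 (adjusted p = 0.00699). Pvalb measured 0.299, 0.216 and 0.247 with testosterone and 1.597, 0.552 and 0.982 with placebo, and differed by -1.42 ± 0.25 (adjusted p = 0.00107).

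Ckm measured 0.301, 0.399 and 0.439 in submandibular testosterone pools and 1.12, 0.679 and 0.655 in placebo pools, a difference of -0.82 ± 0.22 (adjusted p = 0.0203). Without placebo pool A it was -0.61 (adjusted p = 0.0744) and without testosterone pool A -0.71 (adjusted p = 0.0781). Tnnt3 measured 0.286, 0.332 and 0.280 with testosterone and 0.638, 0.451 and 0.553 with placebo, a difference of -0.60 ± 0.17 (adjusted p = 0.0287). Of the submandibular pools only placebo pool A exceeded the dimness filter for Tnnt3. The Tnnt3 difference did not pass without placebo pool A (0.0813), placebo pool C (0.0717), testosterone pool A (0.0774) or testosterone pool C (0.0758). The order of placebo pools, A above C above B, was the same for Atp2a1, Pvalb, Tnnt3 and Mylpf. Without placebo pool A, or without testosterone pool A, 2 of the 4 falls were left, Atp2a1 and Pvalb.

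Members that missed the threshold showed how far the pools decide these calls. Tnnc2 differed by -1.12 ± 0.46 (adjusted p = 0.123), and by -1.79 (adjusted p = 0.00424) without placebo pool C, the pool in which it was lowest. Mylpf differed by -0.71 ± 0.31 (adjusted p = 0.155), and by -1.16 (adjusted p = 0.00694) without placebo pool B. Across the 23 probes, placebo pool A was highest of its group for 17 (41.2% of all tested probes), and 10, 3 and 6 probes of the 23 lay above the median of their array in placebo pool A, B and C, with 3 in each testosterone pool. The 23 summed to 11.3, 10.6 and 10.4 in testosterone pools and to 26.0, 12.2 and 16.6 in placebo pools. With the 6 submandibular arrays fitted alone, none of the 4 falls passed (adjusted p = 0.0533 for Pvalb, 0.0759 for Tnnt3, 0.0865 for Ckm and 0.124 for Atp2a1), while 5.48% of all tested probes were called.

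**Figure D4:**
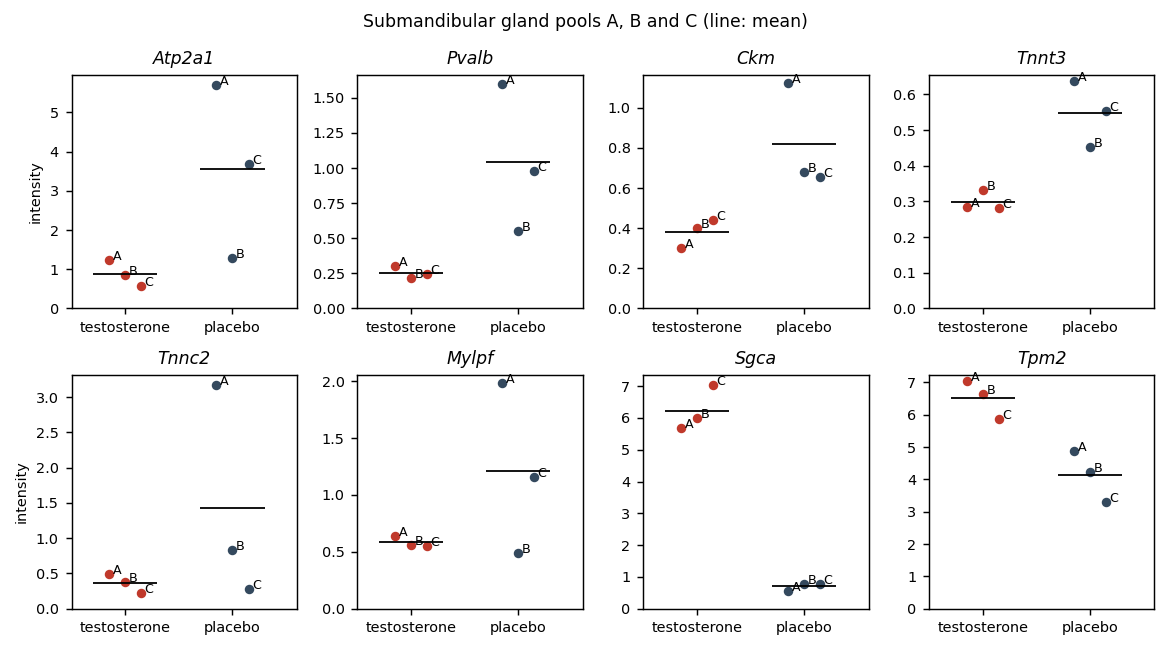
Intensity (linear axis from 0) in the submandibular pools A, B and C of 8 members, testosterone left and placebo right, with lines at the means. Placebo pool A is the highest point for Atp2a1, Pvalb, Ckm, Tnnt3, Tnnc2 and Mylpf, while the Sgca testosterone pools (5.67 to 7.03) lie far above the placebo pools (0.572 to 0.780).

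Of 6 adipocyte probes in this gland 2 fell, Retn and Fabp4 (5.25% of all tested probes were called lower), and the other 4 had negative differences that were not called. The 6 summed to 52.5 to 57.7 in testosterone pools and 62.6 to 159 in placebo pools. The order of placebo pools was not that of the muscle genes: the fat hormone Adipoq, the fatty acid carrier Fabp4 and Cox8b were highest in placebo pool C, at 33.9, 90.2 and 32.6. In the lacrimal gland 2 of the 6 were also called lower, where 14.8% of all tested probes were. Their part in the fall of the muscle genes was not tested.

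Sgca rose with testosterone in the submandibular gland by more than any other member. It encodes alpha-sarcoglycan, a membrane protein of the dystrophin complex in striated muscle. It measured 5.67, 5.99 and 7.03 in testosterone pools and 0.572, 0.780 and 0.763 in placebo pools, a difference of 2.87 ± 0.21 (adjusted p = 6.30e-08), and it passed in the submandibular arrays alone (adjusted p = 0.000366). In meibomian pools it was 0.162, 0.226 and 0.351 with testosterone and 0.277, 0.168 and 0.151 with placebo, and in lacrimal pools 0.462, 0.463 and 0.374 with testosterone and 0.617, 0.778 and 0.380 with placebo. Neither of those glands showed a called difference (0.16 ± 0.21 and -0.30 ± 0.21). The fast-filament genes did not rise with it: all 8 had negative differences.

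Sgcb measured 0.777, 1.06 and 0.963 in submandibular testosterone pools and 0.685, 0.495 and 0.549 in placebo pools, a difference of 0.56 ± 0.17 (adjusted p = 0.0405) that missed the threshold in the submandibular arrays alone (0.122) and without any of 9 single pools in turn, with adjusted p up to 0.136 without placebo pool B. In meibomian pools Sgcb was 1.66, 1.82 and 2.15 with testosterone and 2.42, 2.25 and 2.35 with placebo (-0.30 ± 0.17, adjusted p = 0.450). Sgcd measured 0.547, 0.453 and 0.485 in submandibular testosterone pools and 0.581, 0.399 and 0.846 in placebo pools (-0.19 ± 0.19, adjusted p = 0.568).

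Tpm2 rose in the submandibular gland, at 7.05, 6.64 and 5.87 with testosterone and 4.87, 4.21 and 3.31 with placebo, a difference of 0.65 ± 0.15 (adjusted p = 0.00654, and 0.0809 with the submandibular arrays alone). In meibomian pools it was 2.16, 2.01 and 2.47 with testosterone and 2.18, 2.11 and 2.23 with placebo. The smooth muscle and myoepithelial markers rose beside it, 7 of 9 tested probes with none lower, summing to 142 to 162 in testosterone pools and 64.0 to 75.7 in placebo pools. Fibroblast and matrix markers did as well, 9 of 12 with none lower, summing to 118 to 131 in testosterone pools and 69.3 to 78.5 in placebo pools. Over all tested probes 8.54% were called higher and 5.25% lower in this gland. The part of these markers in the Tpm2, Sgca and Sgcb results was not tested.

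The non-muscle light chains were bright in all glands. Myl12b measured 68.2, 62.8 and 68.5 in submandibular testosterone pools and 47.4, 37.6 and 48.4 in placebo pools, a difference of 0.59 ± 0.19 with pools apart that missed the threshold (adjusted p = 0.0564). In meibomian pools it was 59.2, 45.4 and 51.6 with testosterone and 50.3, 48.8 and 49.4 with placebo. Myl12a measured 0.233, 47.1 and 49.6 in submandibular testosterone pools and 28.7, 24.0 and 24.7 in placebo pools, so testosterone pool A was about at the dim end where the other pools of its group were bright. Its difference was -1.39 ± 1.16 (adjusted p = 0.469), and without testosterone pool A it was 0.90 (adjusted p = 0.000222). In meibomian pools Myl12a was 57.3, 52.8 and 61.2 with testosterone and 60.3, 55.5 and 54.9 with placebo, and in lacrimal pools 23.5, 18.4 and 19.4 with testosterone and 19.3, 21.1 and 20.01 with placebo.

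Of the 41 other skeletal muscle probes in the submandibular gland, 4 rose and 4 fell, where 8.54% and 5.25% of all tested probes were called. Those that rose were Hspb2 (0.75), Hspb8 (0.71), Pfkm (0.71), the muscle phosphofructokinase, and Capn3 (0.63), a muscle calpain. Those that fell were Cox8b (-1.66), Ppp1r3c (-1.61), a glycogen-targeting phosphatase subunit, Cox7a1 (-0.68) and Pax3 (-0.41), a transcription factor of muscle progenitors.

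**Figure D5:**
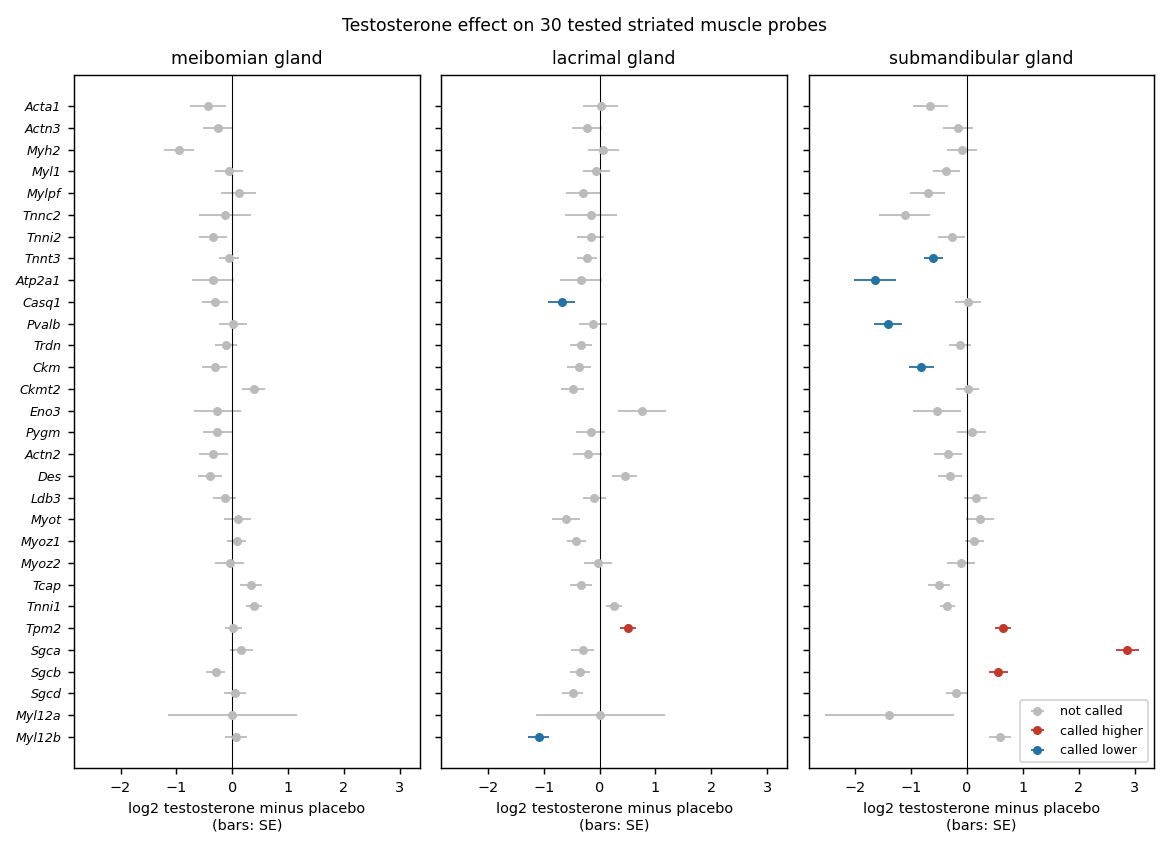
Testosterone minus placebo (log2, bars are standard errors) for the 30 tested probes in each gland, grouped by role. No meibomian point is called, the submandibular panel has 4 lower and 3 higher calls with Sgca at 2.87, and the lacrimal panel has 2 lower calls and 1 higher.

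The testosterone effects were compared between glands for the 30 probes. Meibomian minus lacrimal, 1 of 30 effects was called higher and 0 lower (10.6% and 6.99% of all tested probes), that of Myl12b, and 6 members had an unadjusted p under 0.05. Meibomian minus submandibular, 2 were higher and 2 lower (3.4% and 3.99% of all). Lacrimal minus submandibular, 2 were higher and 3 lower (10.3% and 13.8% of all). The Sgca effect was smaller than the submandibular one by 2.70 ± 0.29 in the meibomian gland (adjusted p = 1.90e-05) and by 3.17 ± 0.29 in the lacrimal gland (adjusted p = 6.68e-07). These comparisons share the submandibular pools. For Atp2a1, Ckm and Tnnt3, called lower in the submandibular gland only, no difference of effects between glands was called.

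The last comparison sets lacrimal against submandibular pools. With placebo 3 were higher in lacrimal pools (Myoz1, Tnni1 and Myot) and 6 lower (Atp2a1, Tnnc2, Pvalb, Pygm, Myl12b and Tpm2), where 26.2% and 17.8% of all tested probes were called. Quantile normalization gave 11 lower in place of 6. With testosterone 2 were higher (Tnni1, 1.65 ± 0.14, and Myoz1, 1.05 ± 0.17) and 6 lower (Sgca, Myl12b, Pygm, Ckmt2, Tpm2 and Sgcb), where 28.3% and 24.2% of all were called. Myot and Ckmt2 exceeded the dimness filter on the 6 meibomian arrays only, so both groups in these calls lay below it. Myot was 0.432 to 0.568 in lacrimal and 0.158 to 0.257 in submandibular placebo pools. Ckmt2 was 0.0800 to 0.154 in lacrimal and 0.263 to 0.363 in submandibular testosterone pools. The part of the unequal dim ends in these calls was not tested. The fast-fibre genes Atp2a1 and Pvalb were lower in lacrimal pools with placebo and not called with testosterone (-0.49 and 0.10). The Tnnc2 placebo difference (-1.20 ± 0.46, adjusted p = 0.0448) was not called without 15 of the 18 arrays in turn, and without submandibular placebo pool A it was -0.43 (adjusted p = 0.246).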

How the data were processed

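RNA of pooled glands was measured on 18 1-colour arrays, 1 per pool. The authors deposited probe intensity on a linear scale; the array, the background correction and the scaling are not given in the sources used here, and the files hold 10500 probes. The value -1 was read as no value (37 to 118 per array), and other values below 0 as 0; no muscle probe had the code and 4 of their values were set to 0. Values were taken as log2(value + 0.174), the offset being the 10th percentile of positive values. Probes were tested with at least 2 values per group and an intensity above the array's 40th percentile on at least 3 arrays, which left 7463. The deposited scaling was kept. The test was limma 3.58.1 under R 4.3.3: 1 linear model of 6 group means over the 18 arrays (residual df 12), then eBayes (trend = TRUE) and Benjamini-Hochberg adjustment; it was checked on simulated data. Probe genes came from the platform annotation, and RefSeq changed 0 of 49 symbols; promoter windows came from RefSeq. The number of arrays limits the precision. Pool letters were checked as pairs by the correlation of residuals. Same-letter pools of different treatment within a gland gave -0.10 to 0.13 in 9 pairs. Same-letter pools of the same treatment in different glands, which could hold the same mice, gave -0.06 to 0.13 in 18 pairs. No pairing was used.

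The members, the gene lists and the tests were chosen with earlier results of these data known. Per-pool values are given for the brightest members of each role (up to 4), for those called under testosterone, and for those called against the majority between glands; other genes were named for singular values after these were seen. Alternatives covered offset, filter, scaling, arrays fitted, weights, threshold, a replicate block and each pool left out.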

Additional observations from a re-analysis of the deposited data

Results flagged for a closer look

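The testosterone effect differed between glands, by a limma test of the difference itself, for 5 muscle genes (log2, adjusted p-values in brackets). The Sgca effect in the submandibular gland was not shared: meibomian minus submandibular was -2.70 (1.90e-05) and lacrimal minus submandibular -3.17 (6.68e-07). Sgcb followed with -0.86 (0.0413) and -0.91 (0.0126). Pvalb, which was lower with testosterone in the submandibular gland, differed by 1.44 (0.0198) for meibomian minus submandibular and by 1.29 (0.0143) for lacrimal minus submandibular. Tnni1 differed by 0.73 (0.0346) and 0.60 (0.0392) for the same pairs, although its effect was called in none of the glands. Myl12b differed by 1.16 (0.00757) for meibomian minus lacrimal and by -1.68 (0.000279) for lacrimal minus submandibular. Under 30 alternatives the Sgca and Myl12b differences passed in all 30, the Pvalb differences in 28 and 29, the Sgcb differences in 16 and 29 and the Tnni1 differences in 19 and 16, each pair of counts with the meibomian comparison first.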

How the results depend on the processing

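No called difference reversed under the 30 alternatives, while the uncalled submandibular difference of Myl12a turned from -1.39 to 0.90 without testosterone pool A. Of 3622 pairs of a gland difference and a setting 3578 passed again and 44 did not, and of 300 such pairs for testosterone effects 253 passed and 47 did not. Counts below are muscle probes called. Quantile normalization moved the median of all probes in meibomian minus lacrimal placebo pools from -0.12 to -0.02; by it testosterone calls in the lacrimal gland were 2 higher and 1 lower, meibomian minus lacrimal effects 2 lower, meibomian minus lacrimal placebo pools 1 lower and lacrimal minus submandibular placebo pools 11 lower. Without a filter on dim probes, where the lower dim end of meibomian arrays enters, the lower calls in meibomian pools were 18 and 14 with placebo and 14 and 10 with testosterone, against the lacrimal and the submandibular gland; there the lacrimal testosterone effect had 1 lower, the meibomian minus submandibular effect 1 lower and the lacrimal minus submandibular effect 1 higher. An offset 4 times smaller gave 1 lower for the meibomian minus submandibular effect. An offset 4 times larger gave 1 lower (Myh2) in the meibomian and 1 lower in the lacrimal testosterone comparison, and 2 higher and 2 lower for the meibomian minus lacrimal effect. A filter at the array median gave 2 higher for that effect. With only the arrays of the glands compared, testosterone calls were 1 higher (Tnni1) in the meibomian, 1 lower in the lacrimal, and 1 higher and 0 lower in the submandibular gland, the lacrimal minus submandibular effect had 1 higher, and meibomian minus lacrimal placebo pools 4 lower. With array weights, testosterone calls were 1 higher and 3 lower (Myh2, Des and Sgcb) in the meibomian and 2 lower in the submandibular gland, the meibomian minus lacrimal effect had 2 higher and 4 lower, and meibomian minus lacrimal placebo pools 4 lower. With the replicate block, whose letters are not said to mark shared mice, the lacrimal testosterone comparison had 1 lower and the meibomian minus submandibular effect 1 lower. At an adjusted p of 0.01, testosterone calls were 0 higher and 1 lower in the lacrimal and 2 lower in the submandibular gland, effects were called 0 higher and 1 lower for meibomian minus submandibular and 0 higher for lacrimal minus submandibular, and lacrimal minus submandibular placebo pools had 3 lower.

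Leaving out each array in turn, testosterone calls ran from 0 to 0 higher and 0 to 1 lower in the meibomian gland, 0 to 2 and 1 to 4 in the lacrimal gland (4 lower without lacrimal testosterone pool A or submandibular placebo pool B), and 2 to 4 and 2 to 5 in the submandibular gland (2 lower without placebo or testosterone pool A). Effects ran from 1 to 2 higher and 0 to 2 lower for meibomian minus lacrimal, 0 to 3 and 1 to 3 for meibomian minus submandibular, and 1 to 3 and 3 to 4 for lacrimal minus submandibular. Gland calls with placebo ran from 23 to 24 higher and 2 to 3 lower, 23 to 25 and 3 to 4, and 2 to 4 and 5 to 8, in the same order of pairs, and with testosterone from 24 to 25 and 2 to 3, 22 to 24 and 2 to 3, and 2 to 4 and 6 to 7. Myl12b in the lacrimal and Sgca in the submandibular gland passed in all 30 alternatives. The dimness of 19 members leaves their gland order unmeasured.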
